A study of Mus musculus with 12 samples.

Results

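The Kcn genes encode the potassium channels of the mouse: the subunits that form the pore and the auxiliary subunits that travel with them. Members were taken by name, as the genes whose symbol starts with Kcn on probe sets with a single symbol in the annotation of the array, and Kcnj10 and Kcnj16 were left out. By this rule 164 probe sets of 82 genes were found, among 45101 probe sets and 18193 genes with a single symbol. Each gene was read on its brightest probe set. Of the 82 members, 52 passed a filter that asks for a signal over the median of the same array on 3 arrays or more, and these were tested among 12429 genes in all. Another 14 Kcn genes of the mouse annotation were not analysed here.

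Astrocytes were captured by laser from the lumbar spinal cord of male SOD1G93A mice and of their non-transgenic (NTg) littermates at 2 ages. The 4 groups were SOD1G93A mice of 90 days, NTg mice of 90 days, SOD1G93A mice of 120 days and NTg mice of 120 days, with 3 mice and 3 arrays each. The study calls 90 days symptomatic and 120 days late-stage. SOD1G93A mice carry a human SOD1 gene with a mutation that causes amyotrophic lateral sclerosis (ALS) on a C57Bl/6 J Ola/Hsd background, and its own promoter drives it in most cell types. Each array holds the amplified RNA of 1500 or more astrocytes per animal, picked on stained sections. The study describes this RNA as coming from mixed cells, astrocytes to a large part, in which markers of neurons and microglia remained after capture. In such pools, fewer cells of a type and less RNA per cell cannot be told apart. The probe sets read mouse transcripts, so the human transgene was not available as a check of the genotype labels. The values are normalized log2 signals, the log2 of the deposited intensity plus an offset of 7, on which a signal of 0 stands at 2.81 and a difference of -1 is a 2-fold lower signal. The 2 ages were normalized apart, and levels are not compared between them. One SOD1G93A array of 120 days, of mouse 3, stood apart. Its deposited median intensity was 55.2, where the other 11 arrays had 24.9 to 43.1, and its mean correlation with the other arrays of its group was 0.849, where the other 11 had 0.887 to 0.955.

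Potassium channels set the resting potential of a cell, end its action potentials and govern how often it fires. Voltage-gated channels are assembled from pore subunits of the Kcna to Kcnd, Kcnq and Kcnh subfamilies, inward rectifiers from Kcnj subunits, leak channels from Kcnk subunits and calcium-activated channels from Kcnma and Kcnn subunits. Most voltage-gated members are best known from neurons, whereas the resting potassium conductance of astrocytes is attributed mainly to Kcnj10, with Kcnj16 and a few Kcnk subunits.

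Late-stage SOD1G93A samples had lower signals than NTg samples for many members. At 120 days 9 of the 52 tested members fell (17.3%), against 4.47% of all genes tested, and 2 rose (3.85%), against 4.14% (limma, Benjamini-Hochberg adjusted p under 0.05). Those that fell were Kcnj3, Kcna2, Kcns3, Kcnq5, Kcng4, Kcnc2, Kcnj14, Kcnab1 and Kcna1, and those that rose were Kcnk6 and Kcne1l. In the same samples 7 of 20 neuronal and synaptic markers fell and 9 of 12 tested microglia markers rose. At 90 days no member passed, where 0.0402% of all genes passed as lower and 0.185% as higher. Without adjustment, 10 members were lower at 90 days at p under 0.05 against 2.72% of all genes, and 1 was higher against 3.5%. At 120 days these counts were 18 (34.6%, against 16.1%) and 5 (9.62%, against 11.6%). By the 2-fold threshold of the study, with an unadjusted p under 0.05, 6 members were lower and 1 was higher at 90 days, against 0.813% and 1.33% of all genes. At 120 days 13 were lower and 5 higher, against 7.68% and 5.56%.

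The shift ran through most of the family. The median log2 fold change of SOD1G93A over NTg was -0.24 at 90 days and -0.61 at 120 days over the tested members, beside 0.02 and -0.08 over all genes tested. The size of the median at 120 days depended on the scaling, with -0.35 on the values as deposited, beside -0.0055 over all genes, and -0.74 under median centring, beside -0.40. Over all 82 members, tested or not, the medians were -0.15 and -0.36, beside 0.02 and -0.01 over all genes of the array. Fold changes were below 0 for 40 tested members at 90 days (76.9%, against 47.2% of all genes) and for 39 at 120 days (75%, against 55.2%). At 120 days every SOD1G93A array was below every NTg array for 26 members (50%, against 20.4% of all genes), and the reverse held for 4, Kcne1l, Kcnk6, Kcnj11 and Kcnmb4 (7.69%, against 15.3%). At 90 days these counts were 9 (17.3%, against 5.45%) and 4 (7.69%, against 6.95%).

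**Figure D1:**
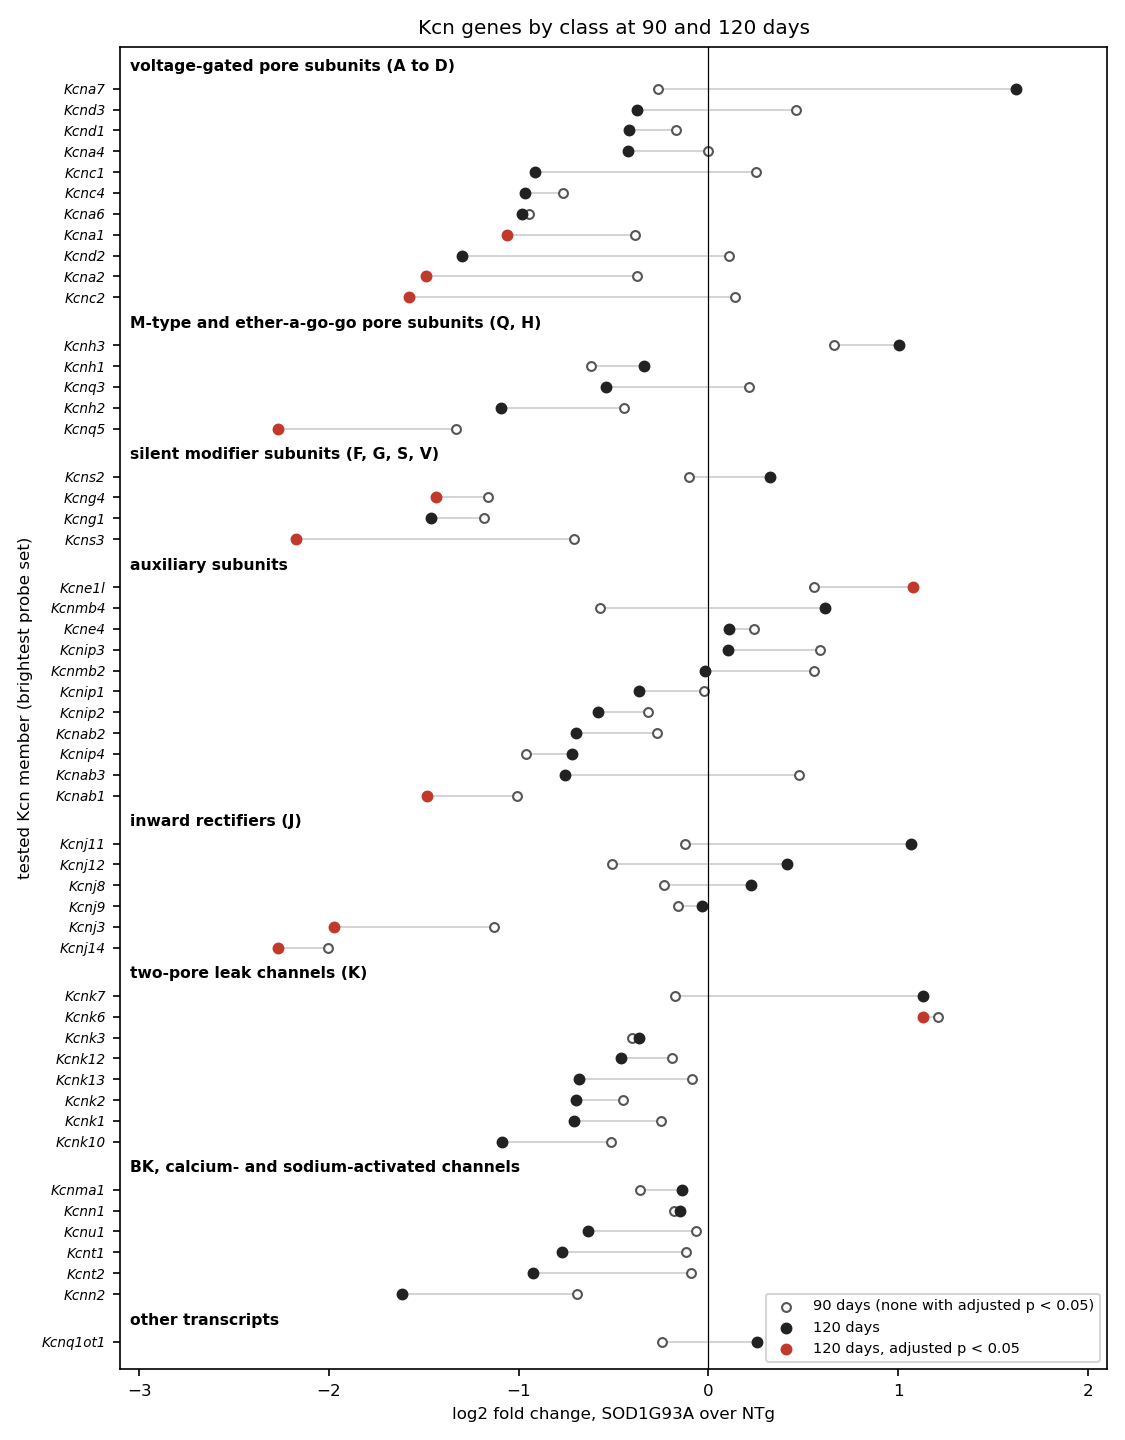
Log2 fold change of SOD1G93A over NTg (x axis) for the 52 tested Kcn members, grouped by class down the page, with open circles for 90 days and filled circles for 120 days (red where the adjusted p was under 0.05). The 9 red circles left of 0 lie between -2.27 and -1.06, and the 2 right of 0, Kcne1l and Kcnk6, lie at 1.08 and 1.13.

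The promoters of the called members with a single start site in the RefSeq table are shown because these genes were called at 120 days. Of these, 3 were called lower and 1 higher. The calls of Kcng4 and Kcne1l were lost without some single arrays, and Kcne1l passed the filter through SOD1G93A arrays alone. Each stretch holds the 250 bases before the start site in GRCm38.p6, 5′ to 3′ on the strand of the gene, with motif matches in capitals. Kcna2 lies on the plus strand at chr3:107101317-107101566, Kcng4 on the minus strand at chr8:119635681-119635930, Kcnj3 on the plus strand at chr2:55435720-55435969 and Kcne1l on the minus strand at chrX:142306199-142306448.
Kcna2: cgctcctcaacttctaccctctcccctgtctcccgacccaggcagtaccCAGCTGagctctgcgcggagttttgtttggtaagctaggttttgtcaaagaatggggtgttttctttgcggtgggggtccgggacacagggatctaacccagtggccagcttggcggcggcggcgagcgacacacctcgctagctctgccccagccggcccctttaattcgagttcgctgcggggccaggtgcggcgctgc
Kcng4: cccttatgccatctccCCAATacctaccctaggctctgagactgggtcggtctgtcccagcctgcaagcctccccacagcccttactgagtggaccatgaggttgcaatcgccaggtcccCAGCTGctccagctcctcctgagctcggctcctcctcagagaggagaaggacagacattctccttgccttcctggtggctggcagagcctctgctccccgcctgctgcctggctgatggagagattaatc
Kcnj3: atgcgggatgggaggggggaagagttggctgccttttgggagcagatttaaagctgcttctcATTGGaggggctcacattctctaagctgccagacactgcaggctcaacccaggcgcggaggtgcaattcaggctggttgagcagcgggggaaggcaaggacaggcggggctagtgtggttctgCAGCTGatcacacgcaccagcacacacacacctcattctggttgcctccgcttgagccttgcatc
Kcne1l: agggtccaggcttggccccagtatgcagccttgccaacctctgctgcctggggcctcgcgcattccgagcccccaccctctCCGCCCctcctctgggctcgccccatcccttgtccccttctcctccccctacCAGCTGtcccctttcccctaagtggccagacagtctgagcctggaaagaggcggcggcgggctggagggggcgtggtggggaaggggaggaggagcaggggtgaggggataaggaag
All 4 hold the E-box CAGCTG, which reads the same on both strands. Kcng4 and Kcnj3 also hold a CCAAT box, written ATTGG in Kcnj3 where it lies on the other strand, and Kcne1l a GC box on the other strand (CCGCCC for GGGCGG). Searched on both strands, CAGCTG was in 13% of the 32851 windows of all genes and in 28.1% of the 57 windows of the tested members. It was in 7 of the 14 windows of the members that fell (50%), of which 4 are partly overlapping windows of Kcnc2. The CCAAT box was in 33.8% of all windows and 42.9% of those 14, and the GC box in 32.7% and 28.6%. The TATA box TATAAA was in none of those 14 windows and in 12.4% of all, and neither the cAMP response element TGACGTCA (1.55% of all) nor the left half-site of the RE1 element, TTCAGCACC (0.301%), was in any. These are matches of letters, and binding at them was not measured. Promoters of Kcna1, Kcnj14 and Kcnk6 were not analysed here.

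Of the 13 pore subunits of the Kcna, Kcnc and Kcnd subfamilies 11 were tested, 3 fell at 120 days and none rose, and their median log2 fold change was -0.17 at 90 days and -0.97 at 120 days. Kcna7, named after its values were seen, went the other way and had the highest fold change of any tested member at 120 days. Its signals were 4.001, 6.95 and 6.66 in SOD1G93A, against 3.79, 5.16 and 3.81 in NTg samples, with overlapping groups (1.62, SE 0.69, adjusted p = 0.162). Kcna2 encodes a low-threshold delayed rectifier of axons and of the regions beside the nodes of Ranvier. At 120 days its signals were 10.69, 10.80 and 10.42 on SOD1G93A arrays, against 12.13, 12.24 and 11.997 on NTg arrays. All SOD1G93A arrays were below all NTg arrays, by a log2 fold change of -1.49 (SE 0.23, adjusted p = 0.00281). At 90 days the signals were 10.86, 10.71 and 10.74 in SOD1G93A, against 11.43, 11.07 and 10.95 in NTg samples, again without overlap, but the difference of -0.38 did not pass (adjusted p = 1.00). A second probe set of Kcna2 also fell at 120 days (-1.15, adjusted p = 0.0239), but the mean over all its probe sets did not pass (-0.53, adjusted p = 0.0802). That mean takes in probe sets of low signal that did not pass the filter.

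Kcna1 encodes the partner of Kcna2 in many axonal channels. It had 9.81, 10.14 and 9.93 in SOD1G93A, against 10.85, 11.33 and 10.89 in NTg samples at 120 days, with no overlap. The log2 fold change was -1.06 (SE 0.30, adjusted p = 0.0461), close to the threshold, and the call was lost without any one of 9 arrays. All 3 tested probe sets of Kcna1 fell at 120 days, the other 2 at -1.06 (adjusted p = 0.0392) and at -1.84 (adjusted p = 0.00841). At 90 days the groups overlapped, with 10.58, 11.15 and 11.07 in SOD1G93A and 11.53, 11.72 and 10.72 in NTg samples (-0.39, adjusted p = 1.00). Kcna6, another subunit of the same subfamily, had -0.94 at 90 days (adjusted p = 0.625) and -0.98 at 120 days (adjusted p = 0.0838), and its groups overlapped only at 90 days. The other tested probe set of Kcna6 was above 0, at 0.26 and 0.16 (adjusted p = 0.722 at 120 days), with overlapping groups at both ages.

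The Kcnc subunits form channels that open at strong depolarization and let neurons fire fast. Kcnc2 fell at 120 days, with 6.87, 6.94 and 5.78 in SOD1G93A, against 8.62, 8.10 and 7.60 in NTg samples (-1.58, SE 0.38, adjusted p = 0.0255). At 90 days the SOD1G93A arrays, at 6.81, 7.55 and 6.94, overlapped the NTg arrays, at 6.95, 6.53 and 7.40, with a log2 fold change of 0.14. The difference of the effects, 120 days minus 90 days, was -1.72 (SE 0.53) and did not pass (adjusted p = 0.415). Kcnc1 had the same order of signs, at 0.25 and -0.92 (adjusted p = 0.0995 at 120 days), whereas Kcnc4 was below 0 at both ages, at -0.77 and -0.97 (adjusted p = 0.103 at 120 days). All 3 Kcnc members were without overlap at 120 days.

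The Kcnd subunits carry the transient A-type current, and none of the 3 was called. Kcnd2 had 6.86, 6.87 and 6.21 in SOD1G93A, against 7.71, 8.31 and 7.81 in NTg samples at 120 days (-1.30, SE 0.41, adjusted p = 0.0672). Kcnd3 had 6.37, 6.57 and 7.02 in SOD1G93A, against 6.96, 7.07 and 7.06 in NTg samples (-0.38, adjusted p = 0.516), and its groups overlapped. At 90 days both were above 0, at 0.11 for Kcnd2 and 0.46 for Kcnd3, with adjusted p = 1.00 for each. The other tested probe set of Kcnd3 was above 0 at 120 days too, at 0.44 (adjusted p = 0.471).

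Of the 9 subunits of the Kcnq and Kcnh subfamilies 5 were tested and 1, Kcnq5, fell at 120 days. Kcnq5 contributes to the M-current, a slow potassium current that holds neurons below firing threshold. Its signals were 3.27, 5.18 and 3.44 in SOD1G93A, against 6.15, 6.19 and 6.36 in NTg samples at 120 days (-2.27, SE 0.46, adjusted p = 0.0123). At 90 days they were 4.98, 4.64 and 4.15 in SOD1G93A, against 5.22, 6.51 and 6.03 in NTg samples, again without overlap (-1.33, adjusted p = 0.614). Kcnq5 passed the filter through NTg arrays alone, since none of its 6 SOD1G93A signals was above the median of its array. A second probe set fell too (-2.50, adjusted p = 0.00657), and another had -1.24 (adjusted p = 0.151). Kcnh2, a channel of the ether-a-go-go type that repolarizes heart muscle and damps repeated firing, had 7.78, 7.14 and 7.07 in SOD1G93A, against 7.99, 8.95 and 8.32 in NTg samples. Its groups did not overlap and the difference of -1.09 (SE 0.32) just missed the threshold (adjusted p = 0.0528). Kcnh1 had -0.62 at 90 days (adjusted p = 0.883) and -0.34 at 120 days (adjusted p = 0.471). Its other tested probe set had -0.43 and 0.16 (adjusted p = 0.764 at 120 days). Kcnh3, also named after its values were seen, was above 0 at both ages, at 0.66 and 1.01 (adjusted p = 0.168 at 120 days), with groups that overlapped only at 120 days.

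The Kcnf, Kcng, Kcns and Kcnv subunits form no channel on their own and change the gating of other voltage-gated subunits. Of these 9 members 4 were tested, 2 fell at 120 days, and the median over the 4 was -0.94 at 90 days and -1.45 at 120 days. Kcns3 had 4.58, 4.29 and 3.79 in SOD1G93A, against 6.58, 6.47 and 6.12 in NTg samples at 120 days (-2.17, SE 0.37, adjusted p = 0.00481). All 3 SOD1G93A arrays lay below the median of their array there, so this fold change rests on low signals. At 90 days the groups overlapped, with 3.57, 5.16 and 4.76 in SOD1G93A and 5.33, 5.32 and 4.96 in NTg samples (-0.71, adjusted p = 0.940).

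Kcng4 was lower at both ages without overlap. At 120 days it had 5.85, 5.67 and 4.79 in SOD1G93A, against 6.40, 7.19 and 7.03 in NTg samples (-1.44, SE 0.33, adjusted p = 0.0213). At 90 days it had 6.72, 6.70 and 6.96 in SOD1G93A, against 7.83, 8.42 and 7.61 in NTg samples (-1.16, adjusted p = 0.399). Kcng1, a member outside the rule for named genes and chosen after its values were seen, had -1.18 at 90 days (adjusted p = 0.655) with overlapping groups, and -1.46 at 120 days (adjusted p = 0.0526) without overlap.

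Among the 15 auxiliary subunits 11 were tested, with 1 call in each direction at 120 days and a median of -0.37. Kcnab1 encodes a cytoplasmic subunit that binds Kcna channels and speeds their inactivation. It had 7.56, 7.44 and 6.09 in SOD1G93A, against 8.12, 8.83 and 8.60 in NTg samples at 120 days (-1.48, SE 0.39, adjusted p = 0.0373). At 90 days it had 7.68, 7.17 and 7.17 in SOD1G93A, against 8.08, 8.92 and 8.05 in NTg samples, without overlap (-1.01, adjusted p = 0.765). Kcnab2, its close relative, had -0.27 and -0.70 (adjusted p = 0.210 at 120 days) with overlapping groups.

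Kcne1l encodes a small single-span subunit of the Kcne subfamily, and it rose at 120 days. Its signals were 6.04, 6.02 and 6.12 in SOD1G93A, against 5.14, 4.46 and 5.34 in NTg samples (1.08, SE 0.27, adjusted p = 0.0328). At 90 days they were 5.38, 5.11 and 5.56 in SOD1G93A, against 4.85, 4.47 and 5.06 in NTg samples (0.56, adjusted p = 0.926). Only SOD1G93A arrays carried it past the filter, with no NTg signal above the median of its array, and with no filter at all the adjusted p was 0.0626. Of the other auxiliary subunits named by the rule, Kcnip4, which binds Kcnd channels, had -0.96 at 90 days and -0.72 at 120 days (adjusted p = 0.835 and 0.286). Its other tested probe set was above 0 at both ages, at 0.16 and 0.54 (adjusted p = 0.294 at 120 days). Kcnmb2 and Kcnmb4 bind the large-conductance channel formed by Kcnma1. Kcnmb2 had 0.56 at 90 days (adjusted p = 0.924) and -0.02 at 120 days. Kcnmb4 had -0.57 and 0.62, and the difference of these effects, 1.19 (SE 0.42), did not pass (adjusted p = 0.463).

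The 13 inward rectifiers, without Kcnj10 and Kcnj16, included the member with the smallest adjusted p at 120 days. Kcnj3 encodes a subunit of the channels that G proteins open when inhibitory transmitters bind. At 120 days its signals were 5.90, 6.13 and 4.96 in SOD1G93A, against 7.57, 7.71 and 7.63 in NTg samples. All SOD1G93A arrays were below all NTg arrays, and the log2 fold change was -1.98 (SE 0.30, adjusted p = 0.00254). At 90 days the signals were 5.69, 5.89 and 5.74 in SOD1G93A, against 7.24, 6.83 and 6.64 in NTg samples, also apart, with a fold change of -1.13 (adjusted p = 0.319). The other tested probe set of Kcnj3 had 0.57 at 120 days (adjusted p = 0.423) with overlapping groups, so the probe sets of this gene disagreed in sign.

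Kcnj14 encodes a strong inward rectifier that is known, in rat, from motor neurons of the brainstem. It had 5.51, 5.86 and 3.83 in SOD1G93A, against 7.12, 7.26 and 7.63 in NTg samples at 120 days (-2.27, SE 0.55, adjusted p = 0.0263). At 90 days it had 7.21, 6.80 and 6.36 in SOD1G93A, against 7.63, 9.76 and 8.99 in NTg samples (-2.004, SE 0.55, adjusted p = 0.350). This was the lowest fold change of any tested member at 90 days, with NTg arrays spread over a wide range. The other 4 tested members of the subfamily had fold changes of -0.51 to -0.13 at 90 days and of -0.037 to 1.07 at 120 days, with no call. Over all 6 tested, Kcnj3 and Kcnj14 included, the median was -0.37 at 90 days, where all 6 were below 0, and 0.09 at 120 days. Kcnj11, the pore of the ATP-sensitive channel and a member named after its values were seen, had 7.83, 7.94 and 8.81 in SOD1G93A, against 7.21, 7.19 and 6.97 in NTg samples at 120 days (1.07, SE 0.31, adjusted p = 0.0526).

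Of the 12 tandem-pore leak channels 8 were tested, with 1 call, a rise. Kcnk6 encodes a leak channel that in mouse macrophages carries the potassium efflux that precedes inflammasome activation. It was the member with the smallest p at 90 days, with 8.05, 7.52 and 7.59 in SOD1G93A, against 6.46, 6.27 and 6.79 in NTg samples (1.21, SE 0.25, adjusted p = 0.128). At 120 days it had 7.001, 7.39 and 7.37 in SOD1G93A, against 5.96, 6.28 and 6.14 in NTg samples (1.13, SE 0.25, adjusted p = 0.0192). The groups were apart at both ages by nearly the same fold, with a difference of effects of -0.08 (SE 0.35, adjusted p = 0.958). Kcnk1, a leak channel also found in astrocytes, had 8.90, 8.85 and 7.99 in SOD1G93A, against 9.29, 9.47 and 9.09 in NTg samples at 120 days (-0.71, SE 0.32, adjusted p = 0.183). The median of the 8 was -0.22 at 90 days and -0.57 at 120 days.

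None of the 6 tested members of the large-conductance, calcium-activated and sodium-activated channels was called. On the brightest probe sets all 6 had fold changes below 0 at both ages, against 47.2% and 55.2% of all genes. The medians were -0.15 and -0.70. Signs at 90 days changed for Kcnma1, Kcnt1 and Kcnu1 when some single arrays were left out, and at 120 days for Kcnma1. Another probe set of Kcnma1 had 0.20 and 0.16, and another of Kcnn1 had 0.33 and -1.20. Kcnn2, a small-conductance channel behind the pause after an action potential, had 5.73, 5.71 and 3.30 in SOD1G93A, against 6.35, 6.77 and 6.47 in NTg samples at 120 days (-1.61, SE 0.50, adjusted p = 0.0674). A single SOD1G93A array lay far below the other 2 there. The sodium-activated Kcnt1 and Kcnt2 had -0.77 (adjusted p = 0.203) and -0.92 (adjusted p = 0.153), Kcnu1 had -0.64 (adjusted p = 0.202) and Kcnma1 had -0.14 (adjusted p = 0.844). Kcnq1ot1, a long non-coding RNA that bears a Kcn symbol, was the only other transcript tested. On its brightest probe set it had -0.24 at 90 days and 0.26 at 120 days, while its other 3 tested probe sets were below 0 at 120 days, at -0.20, -0.97 and -1.30 (adjusted p = 0.826, 0.0879 and 0.0525).

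**Figure D2:**
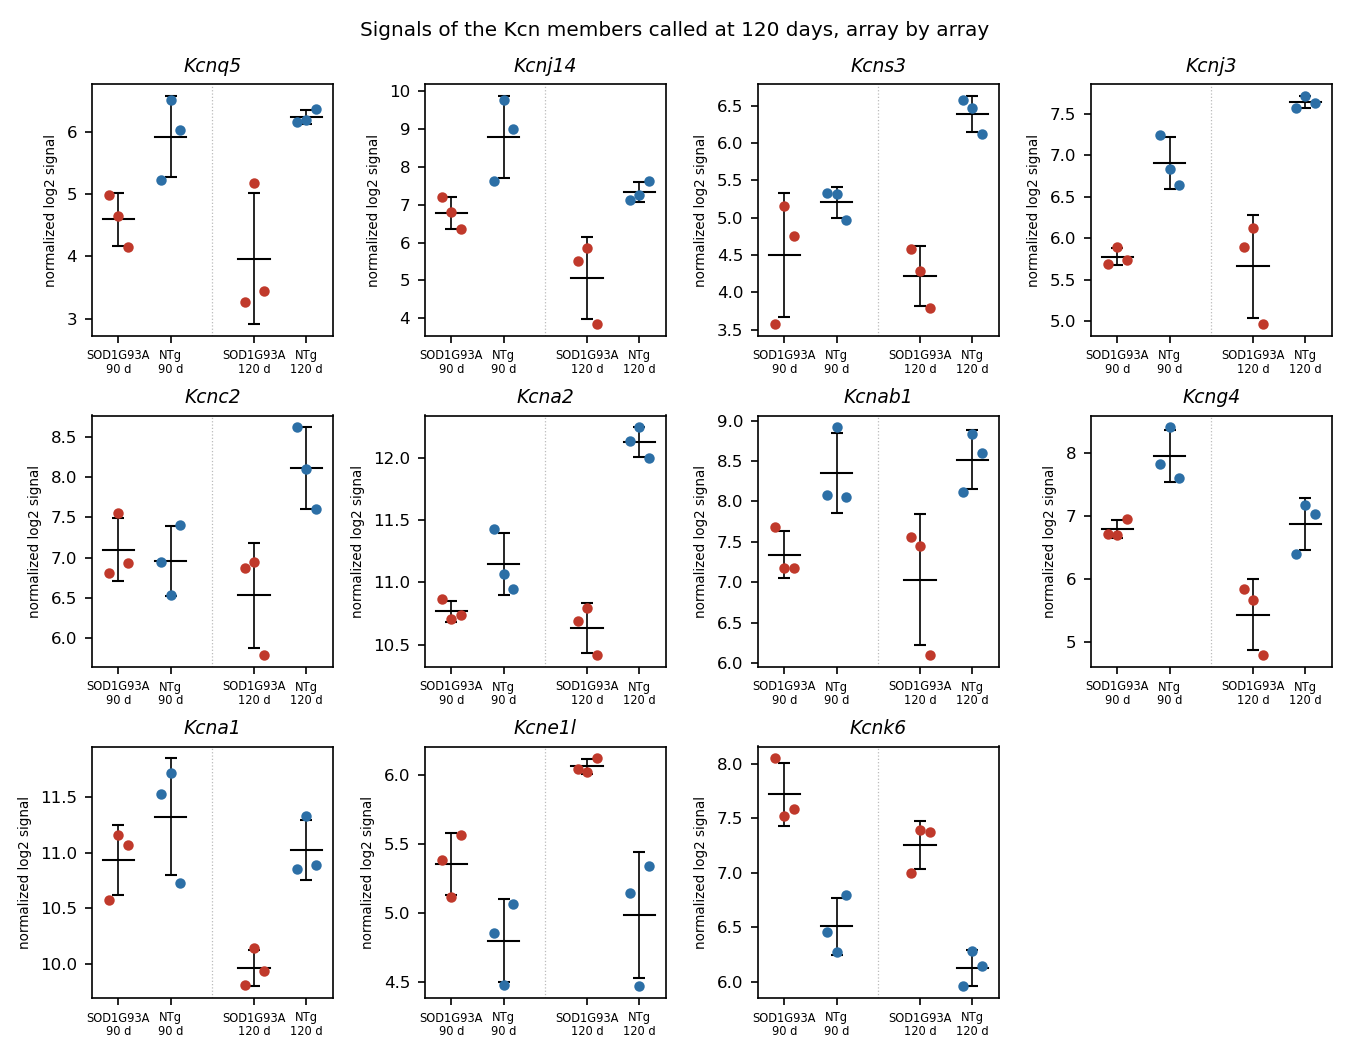
Normalized log2 signal (y axis) of the 11 members called at 120 days, 1 point per array, for SOD1G93A (red) and NTg (blue) samples at 90 and 120 days, with bars for the mean and the SD of 3 mice. At 120 days the groups of every panel are apart, with SOD1G93A below NTg for 9 genes and above for Kcnk6 and Kcne1l.

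None of the genes tested passed for the difference between the 120 day and 90 day effects (limma, adjusted p under 0.05). No member can therefore be said to differ between the ages. At an unadjusted p under 0.05, the effect of SOD1G93A over NTg was lower at 120 than at 90 days for 5 members. They were Kcna2, Kcnc1, Kcnc2, Kcnd2 and Kcns3 (9.62%, against 5.15% of all genes). For another 3 the effect was higher (Kcnj11, Kcnj12 and Kcnmb4, 5.77% against 3.93%). These are differences of effects, and levels were not compared between the ages. Kcna2 had the smallest p among these, with a difference of effects of -1.11 (SE 0.32, adjusted p = 0.402).

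Counting every tested probe set, the brightest ones included, added no gene to those called. Of 164 probe sets of the family 85 were tested, and at 120 days 13 fell in 9 genes (15.3%, against 3.86% of all probe sets) and 2 rose in 2 genes (2.35%, against 3.6%). Of the 9 genes only Kcna1, Kcna2 and Kcnq5 fell on several probe sets, and Kcnab1, Kcnc2, Kcng4, Kcnj14 and Kcns3 had 1 tested. Of 21 members with several tested probe sets, 13 had a single sign over all of them at 120 days. Kcnma1, with 5 tested probe sets, ranged over log2 fold changes of -1.09 and 0.16 with no call. Of the members, 15 are named in the tables of the study, and all 15 were tested. At 120 days 7 of the 15 fell and none rose, and at 90 days none passed. The study chose them on these samples, so their count is no independent evidence of a direction.

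The 30 members that were not tested exceeded the array median on at most 2 of 12 arrays. They were Kcna3, Kcna5, Kcne1, Kcne2, Kcne3, Kcnf1, Kcng2, Kcnh5, Kcnh7, Kcnh8, Kcnj1, Kcnj2, Kcnj4, Kcnj5, Kcnj6, Kcnj13, Kcnj15, Kcnk4, Kcnk5, Kcnk15, Kcnk16, Kcnmb1, Kcnmb4os1, Kcnmb4os2, Kcnn3, Kcnn4, Kcnq1, Kcns1, Kcnv1 and Kcnv2. Among the 52 tested members 3 passed through arrays of a single genotype, Kcne1l and Kcnip3 through SOD1G93A arrays and Kcnq5 through NTg arrays. With no filter, 7 of all 82 members fell at 120 days, against 1.52% of all genes, and 1 rose, against 2.05%. All 8 were among the 11 called with the filter, so none of the 30 was called.

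Proteins that hold, anchor or regulate potassium channels were read on a list of 20 genes, of which 15 were tested. Of these, 1 fell at 120 days and none rose, and the median was -0.15 at 90 days and -0.76 at 120 days. This was Dpp10, an auxiliary protein of Kcnd channels, with 7.18, 6.49 and 6.57 in SOD1G93A, against 7.74, 8.28 and 8.23 in NTg samples (-1.34, SE 0.34, adjusted p = 0.0322). The 2 tested hyperpolarization-activated channels had -0.20 for Hcn2 and -0.76 for Hcn3 at 120 days, with no call. Of 5 tested cation-chloride cotransporters, which move potassium with chloride, Slc12a5 alone was called, although the median of the 5 was above 0, at 0.52 at 90 days and 0.79 at 120 days. It is the potassium-chloride exporter of neurons and had 11.36, 11.28 and 10.85 in SOD1G93A, against 12.89, 13.00 and 12.85 in NTg samples at 120 days (-1.75, SE 0.23, adjusted p = 0.00112). At 90 days its groups overlapped (-0.12, adjusted p = 1.00).

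Markers of neurons moved the same way as the members that fell. Of 20 neuronal and synaptic markers, all tested, 7 fell and 1 (Gap43) rose at 120 days, with medians of -0.32 at 90 days and -0.69 at 120 days. Their summed deposited intensity at 120 days was 18231.6 to 27340.5 in SOD1G93A and 33668.9 to 43915.2 in NTg samples. At 90 days it was 30214.3 to 37855.9 in SOD1G93A and 38388.9 to 43546.9 in NTg samples. Motor neuron markers had medians of -0.49 and -1.20 over the 8 tested, with 1 (Chodl) called lower at 90 days and 2 (Chodl and Nefh) at 120 days. Their sums at 120 days were 1324.7 to 2681.6 in SOD1G93A and 3262.9 to 5543.2 in NTg samples, and Slc5a7 of that list was below the median of every array. For comparison, the summed intensity of the 82 Kcn members at 120 days was 9711.7 to 10537.2 in SOD1G93A and 16137.2 to 19095.8 in NTg samples. At 90 days it was 11062.6 to 14193.8 in SOD1G93A and 14293.2 to 15288.7 in NTg samples. A few bright members, such as Kcna1, Kcna2 and Kcnc1, made up a large part of these Kcn sums. The part of neuronal RNA in the lower Kcn signals was not tested.

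Most tested markers of microglia rose at 120 days. The 2 members that rose, Kcnk6 and Kcne1l, were 3.85% of those tested, near the 4.14% of all genes. Of 12 tested microglia markers, 3 rose at 90 days and 9 at 120 days, with medians of 1.22 and 1.82, and Itgam was below the median of every array. Their summed intensity was 12039.1 to 13424.9 in SOD1G93A and 2213.8 to 2591.2 in NTg samples at 120 days. At 90 days it was 10017.7 to 14136.8 in SOD1G93A and 3696.5 to 6242.8 in NTg samples. Leukocyte markers Ptprc and Cd52 also rose at 120 days, while Cd3e, Cd4, S100a9 and Ccr2 were below the median of every array. The part of these cells in the rise of Kcnk6 and Kcne1l was not tested. Astrocyte markers were all above the filter, with a median of 0.15 at both ages, and Gfap, Sox9 and Aldh1l1 rose at 120 days (4.79, 1.53 and 1.22). Their summed intensity was 21006.5 to 32302.2 in SOD1G93A and 19294.8 to 23669 in NTg samples at 120 days, and 36212.5 to 42945.8 in SOD1G93A and 31485.7 to 38951.9 in NTg samples at 90 days. Oligodendrocyte markers had no call and a median of 0.10 at both ages. Their summed intensity was 38419.5 to 49761.2 in SOD1G93A and 24907.4 to 31916.9 in NTg samples at 120 days, without overlap, and 38047.2 to 62860.6 in SOD1G93A and 32335.4 to 55756.9 in NTg samples at 90 days.

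**Figure D3:**
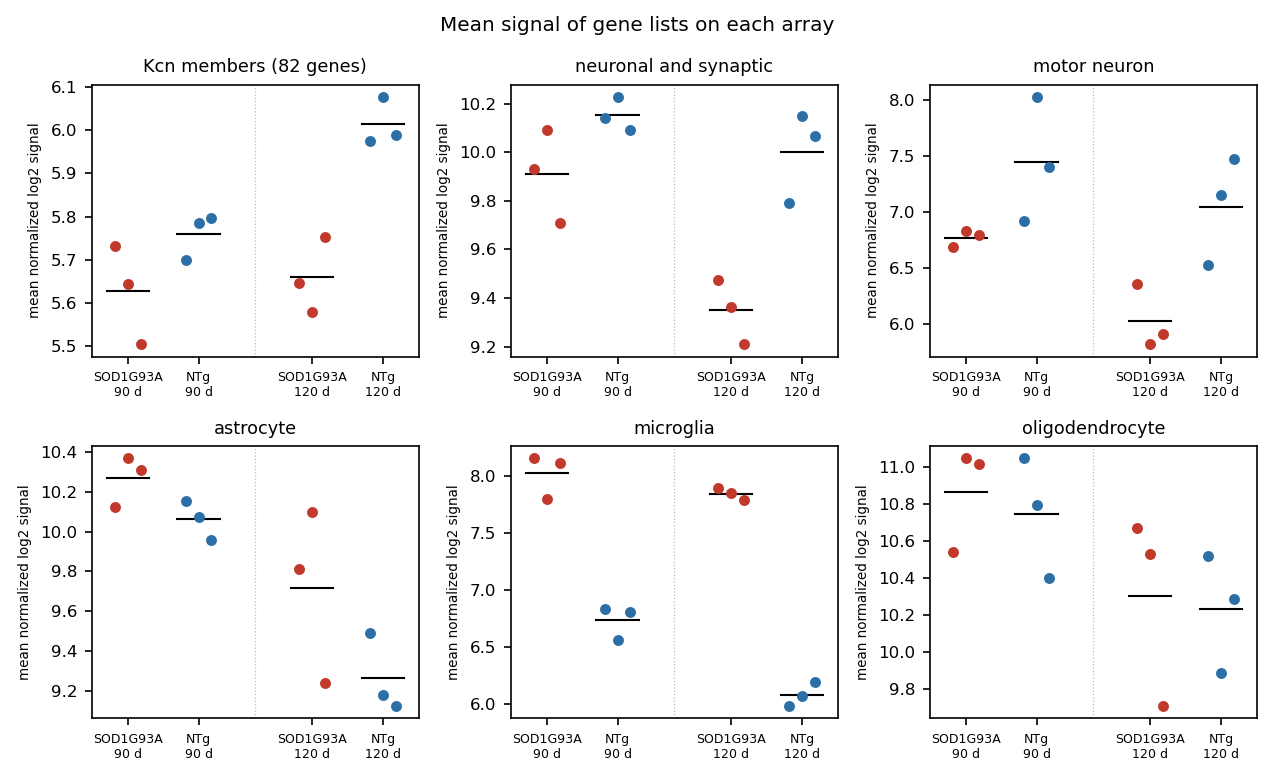
Mean normalized log2 signal (y axis) of all 82 Kcn members and of 5 marker lists, 1 point per array and a line at the mean of 3 mice, for SOD1G93A (red) and NTg (blue) samples at 90 and 120 days. At 120 days the Kcn mean is 5.58 to 5.75 in SOD1G93A and 5.98 to 6.08 in NTg samples, apart as are the neuronal, the motor neuron and the microglial means.

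The SOD1G93A array of 120 days that stood apart was the lowest SOD1G93A array of 120 days for 7 of the 9 members that fell. Without it 5 members were called lower (1.98% of all genes) and 1 higher (2.98%). Kcna2, Kcnj3, Kcnq5 and Kcns3 were still called lower without it, and Kcnk6 higher. Leaving out each of the other arrays gave 3 to 11 members called lower (0.494% to 6.21% of all genes) and 0 to 4 called higher (1.69% to 4.56%). The calls of Kcnj3, Kcna2 and Kcns3 held without any one of the 12 arrays. The call of Kcnk6 was lost without any one of the 3 NTg arrays of 120 days, with adjusted p of 0.0651 to 0.0718.

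**Figure D4:**
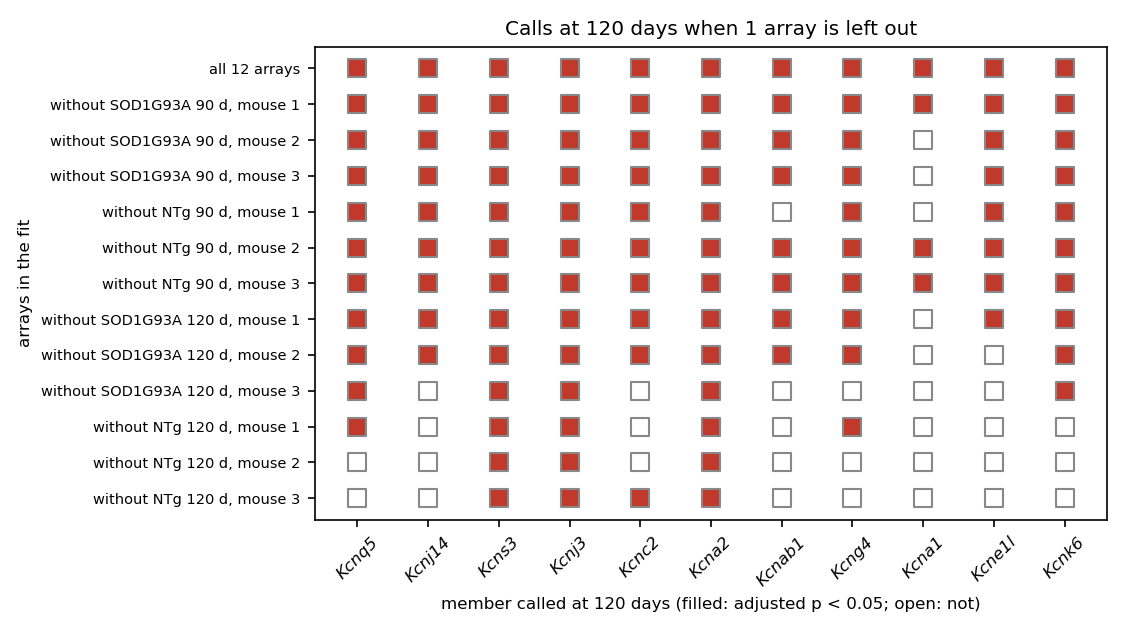
Calls at 120 days of the 11 members (columns) when 1 array is left out (rows), filled where the adjusted p stayed under 0.05 and open where it did not. The columns of Kcns3, Kcnj3 and Kcna2 are filled throughout, and most open squares lie in the rows without SOD1G93A mouse 3 or without an NTg mouse of 120 days.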

How the data were processed

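Astrocyte RNA from lumbar spinal cord was measured on 12 Affymetrix whole-genome mouse arrays, 3 male mice in each of 4 groups. The deposited values are intensities on a linear scale, which the authors made with MAS5 and scaled so that each array has a trimmed mean of 100. No MAS5 version and no present calls were given in the sources used here. The labels name toluidine blue staining, while the methods of the study describe ALDH1L1 staining and a PLIER summary in place of MAS5. Probe sets were named from the platform annotation, with 34958 of a single symbol, 932 of several and 9211 of none. The number of mice limits the precision, since arrays hold no counts.

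An offset of 7, the rounded 20th percentile of all intensities, was added before the log2. The array medians spanned 0.229 at 90 days and 0.834 at 120 days on that scale, so arrays were quantile normalized within each age. After 64 controls were left out, the 26132 probe sets that exceeded the array median on 3 arrays or more were tested. The linear model (limma 3.58.1, R 4.3.3, moderated by eBayes) had a mean for each of the 4 groups, which left 8 degrees of freedom. Its contrasts were SOD1G93A minus NTg at each age and the difference of the 2. The Benjamini-Hochberg adjustment ran over all probe sets tested, at a threshold of 0.05. All tests were two-sided. A gene was read on its probe set with the highest mean. The threshold of the study, a 2-fold change with an unadjusted p under 0.05, was counted beside it.

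Named genes were all called members, the tested member of smallest p in each subfamily at each age, the Kcn genes of the study tables, and up to 3 called genes of each list of other pathway genes. The members and lists were chosen with earlier results of these data known. Fits were tested on simulated data with known changes. Promoters came from a RefSeq table of GRCm38.p6, which matched 62 of the 82 members. Alternatives tried were other scalings, offsets, filters and priors, each age alone, a replicate block, array weights, an unmoderated test, averaged probe sets and leaving out each array. Plots used matplotlib 3.10.9 (python 3.11.15).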

Additional observations from a re-analysis of the deposited data

How the results depend on the processing

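Of the 11 members called at 120 days, Kcnj3 and Kcns3 were called under every alternative in which they were tested, and Kcna2 under all but the averaging of probe sets. With averaged probe sets neither Kcnj3 nor Kcns3 was tested. Kcns3 was also not tested under the 75th percentile filter and the filter on the mean over all arrays. None of the 11 changed sign at 120 days. The number called lower at 120 days was 9 as reported (4.47% of all genes), 19 under median centring (13.1%), 15 with a trended and robust prior (6.87%), 5 with the replicate block (2.12%), 4 with each age fitted alone (1.23%) and 3 with the unmoderated test (2.86%). Median centring moved the median of all genes by -0.31, and 1624 genes were then called lower and 359 higher, 81.9% lower against 51.9% as reported. The number called higher, 2 as reported (4.14%), was 1 with no filter (2.05%), 0 with each age alone (2.03%), 0 with the replicate block (2.58%) and 5 at the 2-fold threshold of the study (5.56%). With 1 array left out, 3 to 11 were called lower (0.494% to 6.21% of all genes) and 0 to 4 higher (1.69% to 4.56%). The calls lost with the replicate block were Kcna1, Kcnab1, Kcng4, Kcnj14, Kcne1l and Kcnk6, with adjusted p of 0.0517 to 0.082. Samples of the same number did not deviate together (correlations of -0.28 to 0.275 at 90 days and -0.0654 to 0.0352 at 120 days), so the main fit has no pairing by number. Pairs of different number had -0.359 to 0.455 at 90 days and -0.0471 to 0.0576 at 120 days. The highest, 0.455, was that of SOD1G93A mouse 1 with NTg mouse 3 at 90 days, and its cause was not tested. At 90 days, where none was called, array weights called Kcnj3 lower and Kcnk6 higher. The 75th percentile filter and averaged probe sets called Kcnk6 alone, as higher. There the 2-fold threshold gave 6 lower (11.5%, against 0.813% of all genes) and 1 higher (1.92%, against 1.33%). For the difference of the effects the 2-fold threshold gave 5 lower (9.62%, against 3.83% of all genes) and 2 higher (3.85%, against 2.81%). Some uncalled fold changes reversed. At 90 days Kcnc1 had -0.0402 with array weights and -0.083 with averaged probe sets, and Kcnd2 had -0.11 with array weights. With 1 array left out, the 90 day fold changes ran between -0.14 and 0.50 for Kcnc1, -0.089 and 0.36 for Kcnc2, -0.36 and 0.45 for Kcnd2, -0.62 and 0.10 for Kcnma1, -0.51 and 0.20 for Kcnt1, and -0.30 and 0.12 for Kcnu1, and the 120 day fold change of Kcnma1 between -0.34 and 0.0041. The causes were not tested. With 3 mice per group and no present calls, signals below the array median carry little precision, which touches Kcns3, Kcnq5 and Kcne1l most.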
